A study of Arabidopsis thaliana with 27 samples.

Results

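CIRCADIAN CLOCK ASSOCIATED 1 (CCA1, AT2G46830) and LATE ELONGATED HYPOCOTYL (LHY, AT1G01060) are the pair of morning genes of the Arabidopsis thaliana circadian clock. Both were chosen by gene ID from the 33039 genes of a transcript table, and both were among the 21396 genes that passed the expression filter. They were measured in whole seedlings of 3 genotypes at 3 temperatures, in 27 libraries that form 9 groups of 3. CCA1 and LHY were high in wild type at every temperature. At each temperature both genes were below wild type in a T-DNA insertion line of EARLY FLOWERING 3 (ELF3). In a line with the ELF3 substitution S364P they were at 105.4% (CCA1) and 73.5% (LHY) of the wild-type mean at 16 °C, and at 3.19% and 1.44% at 29 °C, where the insertion line had 4.68% and 1.59%.

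CCA1 and LHY encode closely related MYB transcription factors whose transcripts normally peak around dawn. Both proteins repress evening genes such as TIMING OF CAB EXPRESSION 1 (TOC1) and GIGANTEA (GI), and the pseudo-response regulators PRR9, PRR7, PRR5 and TOC1, which follow each other through the day, repress CCA1 and LHY in turn. ELF3 belongs to the evening complex with ELF4 and LUX, which represses PRR9, PRR7 and other clock genes at night. Loss of ELF3 is known to lower CCA1 and LHY, and temperature is known to act on the evening complex.

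The groups were Columbia wild type, the mutant that the protocol calls ELF3-16 and the labels ELF3S364P (here the S364P line), and the insertion mutant ELF3-101 (here the insertion line). Both mutants are in the Columbia background, and each is represented by 1 line. The sources used here give no seedling age, insertion position or number of pooled plants. The study's question is how losing that serine, which it treats as phosphorylated, affects hypocotyl growth and the time of flowering. The protocol lists Zeitgeber times of 8, 16 and 24 h against 16, 22 and 29 °C. Read in that order, each temperature has its own time of day, so a difference between temperatures cannot be told apart from a difference between times of day. Genotypes at 1 temperature share both. ELF3 transcript was present in all groups. It was at 27.1 ± 1.97, 20.4 ± 2.54 and 40.3 ± 1.38 TPM (SD, n = 3) in wild type at 16, 22 and 29 °C, 30.7 ± 1.60, 46.9 ± 0.814 and 69.8 ± 2.23 in the S364P line, and 32.3 ± 1.60, 35.4 ± 3.83 and 39.7 ± 1.98 in the insertion line. Gene totals cannot check a substitution, and with the site of the insertion not given they do not check it either. GI, which normally peaks late in the day, was at 0.0833 ± 0.00577 TPM (SD, n = 3) in wild type at 16 °C, 0.340 ± 0.210 at 22 °C and 1.27 ± 0.0208 at 29 °C. In the same groups mean CCA1 was at 270.1, 223.9 and 137.3 TPM and mean LHY at 313.2, 460.8 and 272.4 TPM. Other evening genes in wild type lay at unlike levels at 16, 22 and 29 °C. FKF1 was at 0.203, 0.0633 and 0.217 TPM and TOC1 at 16.5, 15.2 and 29.3 TPM. What time of day these levels match, and whether samples were taken at the listed times, were not tested.

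The regions in front of both genes are shown because the pair moved together in most comparisons. In the RefSeq annotation of TAIR10.1, CCA1 lies on the plus strand at chr2:19245591-19248915 with 3 transcripts, and LHY on the minus strand at chr1:33365-37871 with 8. The windows are the 300 bases before the outermost start of each gene, chr2:19245291-19245590 (plus strand) and chr1:37872-38171 (minus strand), neither of which overlaps another annotated gene. They are written 5′ to 3′ on the strand of the gene, and capitals mark motif matches.
CCA1: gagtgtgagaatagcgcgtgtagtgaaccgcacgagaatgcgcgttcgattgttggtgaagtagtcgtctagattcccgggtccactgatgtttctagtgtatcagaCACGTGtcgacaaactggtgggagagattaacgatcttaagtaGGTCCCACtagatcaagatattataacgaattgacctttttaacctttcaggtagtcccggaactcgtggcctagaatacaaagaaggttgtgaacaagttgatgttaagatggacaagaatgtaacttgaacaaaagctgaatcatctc
LHY: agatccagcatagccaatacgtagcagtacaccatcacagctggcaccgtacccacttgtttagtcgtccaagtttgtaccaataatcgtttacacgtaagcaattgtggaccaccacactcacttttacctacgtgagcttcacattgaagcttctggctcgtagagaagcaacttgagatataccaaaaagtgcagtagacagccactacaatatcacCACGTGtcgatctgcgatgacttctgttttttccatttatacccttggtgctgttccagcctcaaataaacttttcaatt

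Each window held 1 G-box (CACGTG, a motif bound by bHLH and bZIP factors), at bases -193 to -188 before the start of CCA1 and -80 to -75 before that of LHY. Of 27443 windows of the same length before nuclear protein-coding genes, 7.09% held a G-box. The CCA1 window also held a class I TCP site (searched as GGNCCCAC, found as GGTCCCAC), the kind of site bound by TCP factors, at -150 to -143, and 1.18% of windows held one. Neither window matched the evening element AAATATCT (5.64% of windows), the CCA1 binding site AAAAATCT (7.94%), the LUX site GATACG or GATTCG (14.3%) or the element CACATG (13.1%). Both strands were searched, and no 2 matched motifs overlapped. A match is a description of these letters and not a site shown to be used.

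Levels are in TPM, transcript abundance scaled to gene length and library total, so that the genes can be compared with each other. TPM hold no record of depth, which is therefore unknown, and no counting error can be given. Replicates of a group correlated at r = 0.986 to 0.993 across genes on the log2(TPM + 1) scale. Nothing in the labels says that they came from separate plantings, so the spread behind each p-value is that of these samples alone and may be technical. Differences are on the log2(TPM + 1) scale with their SE, from 1 limma fit of 9 group means with Benjamini-Hochberg adjustment over 21396 genes, and a gene is called at adjusted p below 0.05. The 6 green tissue markers summed to 27280 to 76900 TPM and the 15 root markers to 89.9 to 389 TPM in every library, and flower markers to at most 1.5 TPM. Seed markers summed to at most 0.97 TPM except in 1 library, S364P replicate 3 at 29 °C, with 15.8 TPM. In whole seedlings, fewer cells that express a gene and less RNA per cell cannot be told apart.

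In wild type CCA1 was at 258.0, 270.8 and 281.6 TPM at 16 °C, 222.1, 221.2 and 228.2 TPM at 22 °C, and 141.2, 148.5 and 122.2 TPM at 29 °C. LHY was at 313.8, 304.6 and 321.1 TPM at 16 °C, 464.9, 446.9 and 470.6 TPM at 22 °C, and 269.9, 298.0 and 249.3 TPM at 29 °C. The libraries of the 3 temperatures did not overlap for either gene. Both transcripts were abundant: the group mean of CCA1 ranked between place 586 and place 1193 among all genes of the table and that of LHY between place 319 and place 576.

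**Figure D1:**
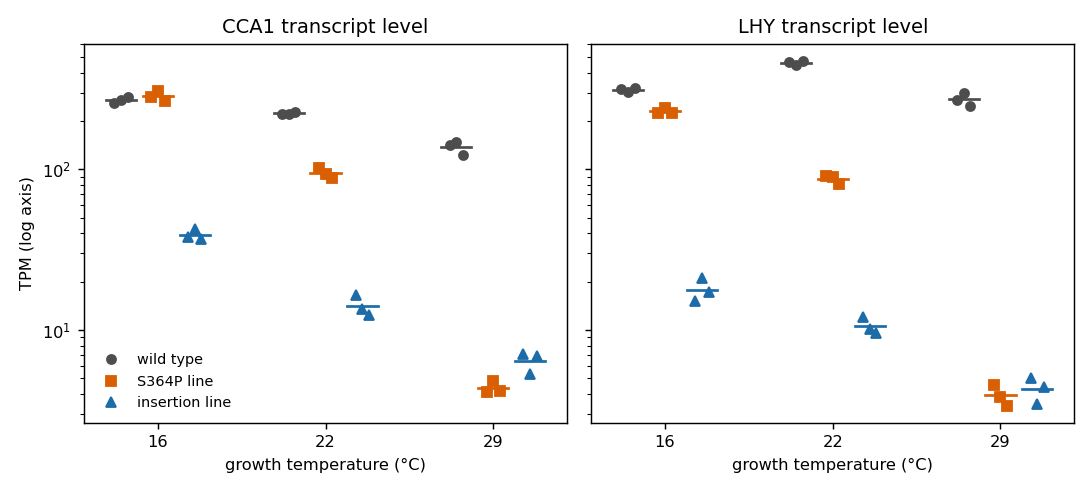
Transcript levels of CCA1 (left) and LHY (right) in TPM on a log axis at 16, 22 and 29 °C; each point is 1 library and each bar the mean of 3. The S364P libraries sit beside wild type for CCA1 at 16 °C (268.0 to 306.3 TPM against 258.0 to 281.6) and beside the insertion line for LHY at 29 °C (3.39 to 4.54 against 3.46 to 5.06).

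At 16 °C the first comparison asks what each ELF3 allele changed in the cold. CCA1 in the S364P line was at 279.9, 306.3 and 268.0 TPM, which overlapped wild type, and its mean of 284.7 ± 19.6 TPM was 105.4% of the wild-type mean. The difference of 0.07 ± 0.098 did not pass (adjusted p = 0.964), with a 95% interval of -0.13 to 0.28. LHY in the S364P line was at 224.1, 242.0 and 224.8 TPM, below all wild-type libraries. Its mean of 230.3 ± 10.14 TPM was 73.5% of wild type, and the difference of -0.44 ± 0.112 missed the threshold (adjusted p = 0.0504). With a pseudocount of 5 it passed (-0.44, adjusted p = 0.00489), as it did with a filter at 5 TPM (adjusted p = 0.0470) and in a fit of these groups alone (adjusted p = 0.00170). Of all tested genes, 1.45% were called in this comparison.

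In the insertion line at 16 °C CCA1 was at 37.7, 42.3 and 36.7 TPM and LHY at 15.1, 21.1 and 17.3 TPM, where replicate numbers are those of the table's columns. Every library was below every wild-type and S364P library for both genes. CCA1 kept 14.4% of its wild-type mean and LHY 5.70%. CCA1 fell by 2.77 ± 0.098 on the log2 scale (adjusted p = 2.79e-15) and LHY fell by 4.07 ± 0.112 (adjusted p = 3.53e-17). Both members were called lower, as were 10.7% of all tested genes. The S364P line stood above the insertion line by 2.84 ± 0.098 for CCA1 and by 3.63 ± 0.112 for LHY (adjusted p = 2.09e-15 and 3.48e-16), in a comparison that called 19.2% of genes.

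At 22 °C the S364P line took a place between the other genotypes. CCA1 was at 101.4, 93.4 and 88.9 TPM and LHY at 90.3, 89.5 and 81.0 TPM, apart from all wild-type and all insertion-line libraries. The means were 42.2% of wild type for CCA1 and 18.9% for LHY. CCA1 fell by 1.24 ± 0.098 relative to wild type and LHY by 2.39 ± 0.112 (adjusted p = 2.18e-09 and 3.58e-13), where 19.9% of all tested genes were called lower. Root markers summed to 89.9 to 138 TPM in these S364P libraries against 172 to 389 TPM in wild type, and their part in the result was not tested.

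The insertion line at 22 °C had CCA1 at 16.4, 13.6 and 12.4 TPM and LHY at 12.1, 10.13 and 9.61 TPM. CCA1 was 15.8-fold and LHY 43.4-fold below wild type by group means. The fitted differences were -3.90 ± 0.098 and -5.32 ± 0.112 (adjusted p = 4.82e-18 and 3.95e-19), in a comparison that called 18.4% of genes lower. The S364P line was higher than the insertion line by 2.66 ± 0.098 for CCA1 and 2.92 ± 0.112 for LHY (adjusted p = 1.02e-14 and 2.02e-14), where 15.6% of genes were called.

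At 29 °C both transcripts nearly disappeared from both mutants. CCA1 in the S364P line was at 4.11, 4.84 and 4.18 TPM and LHY at 4.54, 3.85 and 3.39 TPM. In the insertion line CCA1 was at 7.05, 5.34 and 6.90 TPM and LHY at 5.06, 3.46 and 4.44 TPM. No mutant library came near wild type, and the mutants overlapped each other for LHY but not for CCA1. By group means CCA1 was 31.4-fold below wild type in the S364P line and 21.4-fold in the insertion line. LHY was 69.4-fold and 63.1-fold below.

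Relative to wild type at 29 °C, CCA1 fell in both lines, with differences of -4.68 ± 0.098 in the S364P line and -4.22 ± 0.098 in the insertion line (adjusted p = 2.10e-19 and 2.84e-18). LHY fell by 5.80 ± 0.112 and 5.69 ± 0.112 (adjusted p = 5.84e-20 and 2.86e-19). The pseudocount makes these values smaller than the folds of the means. Of all tested genes 13.7% were called lower in the S364P line and 13.5% in the insertion line. Green tissue markers summed to 27680 to 31790 TPM and 27280 to 30100 TPM in these lines against 44360 to 47730 TPM in wild type, and their part in the result was not tested. Without S364P replicate 3, which carried the seed transcripts, CCA1 differed from wild type by -4.66 and LHY by -5.72.

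The lines were then compared with each other at 29 °C, where 0.341% of all tested genes were called lower in the S364P line. That share rests on 73 genes, which became 890 without S364P replicate 1, 18 and 19 without its replicates 2 and 3, 15 without insertion-line replicate 3 and 7 in a fit of these groups alone. CCA1 was lower in the S364P line than in the insertion line by 0.46 ± 0.098 (adjusted p = 0.0225). The call ended with median-of-ratios scaling (adjusted p = 0.0571), quantile normalization (adjusted p = 0.0554), a pseudocount of 5 (adjusted p = 0.0925) and a fit of these groups alone (adjusted p = 0.330), and without S364P replicate 3 or insertion-line replicate 1 or 3 (adjusted p = 0.110, 0.0888 and 0.154). LHY differed by -0.11 ± 0.112 (adjusted p = 0.670), with a 95% interval of -0.34 to 0.13.

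**Figure D2:**
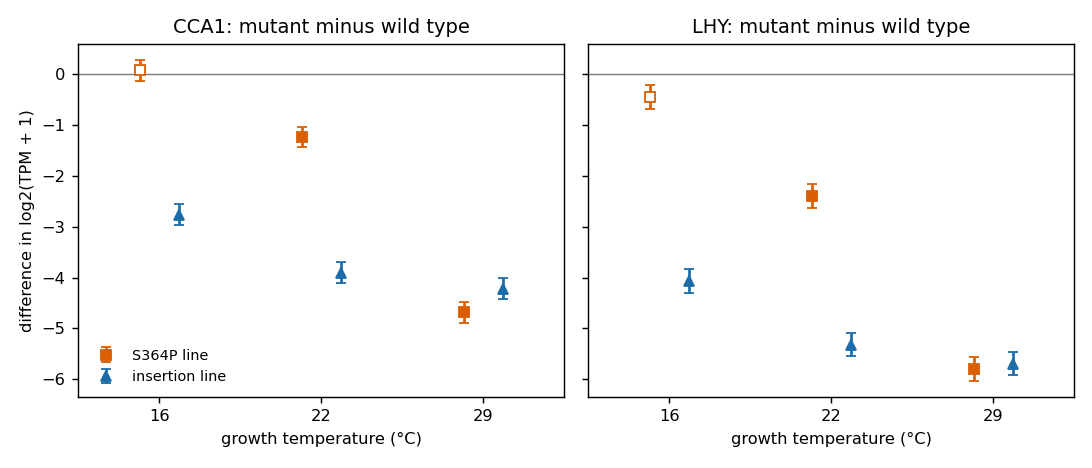
Difference in log2(TPM + 1) from wild type at the same temperature for CCA1 (left) and LHY (right); points are estimates from the limma fit, bars are 95% intervals, and open symbols did not pass. The S364P line moves from 0.07 and -0.44 at 16 °C to -4.68 and -5.80 at 29 °C, while the insertion line is at or below -2.77 at each temperature.

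Ordered by mean, the 9 groups ran for CCA1 from the S364P line at 16 °C through wild type at 16, 22 and 29 °C, the S364P line at 22 °C and the insertion line at 16, 22 and 29 °C to the S364P line at 29 °C. In that order only the first pair of neighbours, the S364P line and wild type at 16 °C, had overlapping libraries. For LHY the order was wild type at 22, 16 and 29 °C, the S364P line at 16 and 22 °C, the insertion line at 16, 22 and 29 °C and the S364P line at 29 °C, and only the last pair overlapped. With median-of-ratios scaling LHY in the S364P line at 16 °C moved above wild type at 29 °C, while the order for CCA1 did not change.

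Steps between temperatures within a genotype were tested next, with the listed time of day moving along. In wild type the pair went opposite ways from 16 to 22 °C. CCA1 fell by 0.27 ± 0.098 (adjusted p = 0.0347) and LHY rose by 0.56 ± 0.112 (adjusted p = 4.71e-04), where 38.2% of tested genes were called. The CCA1 call ended with quantile normalization (adjusted p = 0.1) and without wild-type replicate 2 or 3 at 16 °C (adjusted p = 0.0785 and 0.109) or replicate 1, 2 or 3 at 22 °C (adjusted p = 0.0811, 0.0783 and 0.0609). From 22 to 29 °C both fell, CCA1 by 0.71 ± 0.098 and LHY by 0.76 ± 0.112 (adjusted p = 6.68e-06 and 1.40e-05), where 37.8% of genes were called.

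In the S364P line both genes fell at both steps. From 16 to 22 °C both fell (-1.58 ± 0.098 for CCA1 and -1.40 ± 0.112 for LHY; adjusted p = 1.60e-11 and 8.46e-10). From 22 to 29 °C they fell by 4.15 ± 0.098 and 4.16 ± 0.112 (adjusted p = 5.99e-18 and 2.86e-17). These steps called 55.2% and 53.7% of genes. Root markers in this line summed to 289.6 to 347.2 TPM at 16 °C and 89.9 to 138.2 at 22 °C, and green tissue markers to 67970 to 76900 TPM at 22 °C and 27680 to 31790 at 29 °C. At 29 °C the S364P line kept 1.54% of its 16 °C mean for CCA1 and 1.71% for LHY, against 50.8% and 87.0% in wild type. The insertion line kept 16.5% and 24.2%.

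The insertion line also declined at each step. CCA1 and LHY fell (-1.40 ± 0.098 and -0.69 ± 0.112) from 16 to 22 °C (adjusted p = 1.53e-10 and 2.55e-05), and again from 22 to 29 °C (-1.03 ± 0.098 and -1.13 ± 0.112; adjusted p = 4.75e-08 and 7.63e-08). These steps called 48.3% and 47.5% of genes. Root markers in this line summed to between 260.5 and 332.8 TPM at 16 °C and between 133.6 and 180.7 at 22 °C, and green tissue markers to between 56750 and 65430 TPM at 22 °C and between 27280 and 30100 at 29 °C. In wild type the green sum was between 57340 and 63700 TPM at 22 °C and between 44360 and 47730 at 29 °C, and the part of these markers in the steps was not tested. With median-of-ratios scaling the median difference of all genes between 22 and 29 °C shifted. The shift was -0.12 log2 in wild type, -0.20 in the S364P line and -0.19 in the insertion line. As deposited, the differences of CCA1 and LHY over this step were -0.71 and -0.76 in wild type. They were -4.15 and -4.16 in the S364P line, and -1.03 and -1.13 in the insertion line.

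The difference between these steps was tested itself. From 16 to 22 °C the step of the S364P line was below that of wild type by 1.31 ± 0.139 for CCA1 and 1.95 ± 0.159 for LHY (adjusted p = 1.05e-06 and 2.25e-08; 14.1% of genes called). From 22 to 29 °C the difference was -3.45 ± 0.139 and -3.4 ± 0.159 (adjusted p = 8.32e-13 and 5.41e-12; 17.4% called). The step of the insertion line was below that of wild type from 16 to 22 °C by 1.14 ± 0.139 and 1.25 ± 0.159 (adjusted p = 1.38e-05 and 2.15e-05; 9.82% called). From 22 to 29 °C its differences of -0.32 ± 0.139 and -0.37 ± 0.159 did not pass (adjusted p = 0.116 and 0.110; 17.8% called).

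Between the mutants, the step from 22 to 29 °C fell further in the S364P line, with a difference of -3.12 ± 0.139 for CCA1 and -3.03 ± 0.159 for LHY (adjusted p = 3.06e-12 and 4.21e-11), in a comparison that called 5.62% of genes. From 16 to 22 °C LHY differed by -0.70 ± 0.159 (adjusted p = 0.00892) and CCA1 by -0.18 ± 0.139, which did not pass (adjusted p = 0.584), where 4.81% of genes were called. On the log2(TPM + 1) scale a step that ends near 4 TPM is shortened by the pseudocount. At 22 °C mean CCA1 and LHY were already at 14.1 and 10.6 TPM in the insertion line, against 94.5 and 86.9 TPM in the S364P line. The part of these unlike starting levels in the difference of the steps was not tested.

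The balance within the pair differed between genotypes. In wild type LHY exceeded CCA1 in all 9 libraries, with a log2 ratio of LHY to CCA1 of 0.21 ± 0.060 at 16 °C, 1.04 ± 0.026 at 22 °C and 0.99 ± 0.049 at 29 °C. In the insertion line LHY was below CCA1 in all 9 libraries, with -1.14 ± 0.163, -0.41 ± 0.037 and -0.58 ± 0.088. In the S364P line the ratios were -0.30 ± 0.045, -0.12 ± 0.055 and -0.16 ± 0.266. LHY was below CCA1 in all of its libraries but replicate 1 at 29 °C, where the log2 ratio was 0.14. Annotated transcripts run from 1882 to 2628 bases for CCA1 and from 2132 to 2933 bases for LHY. The sign of a ratio near 0 may therefore depend on the transcript length used for scaling, which was not tested.

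At no temperature did the ratios of any of the 3 genotypes overlap. Single temperatures could not go below p = 0.1 in an exact permutation test of 3 against 3, and each of the 9 comparisons was at p = 0.1. With genotype labels permuted within each temperature, the mean difference from wild type was -0.94 in the S364P line and -1.46 in the insertion line (two-sided exact permutation test, adjusted p = 0.00025 for both). The S364P line was above the insertion line by 0.51 (adjusted p = 0.00025). This is the smallest p that 8000 arrangements can give, adjusted over the 3 pairs, and the comparisons with wild type share its libraries.

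**Figure D3:**
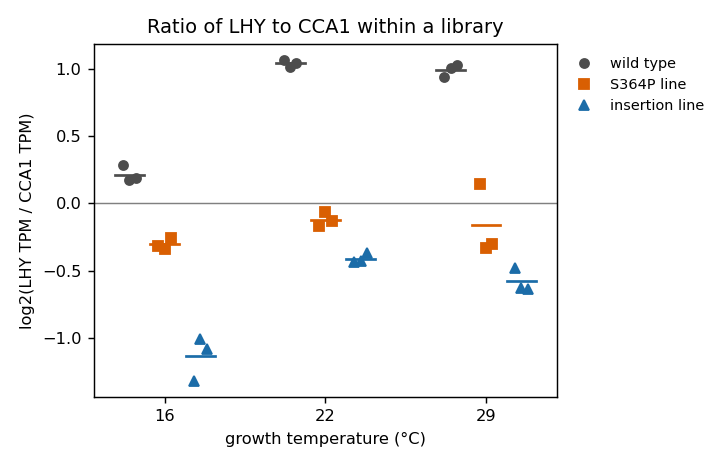
Log2 ratio of LHY to CCA1 TPM within each library, by genotype and temperature; bars are means of 3 and the grey line marks equal levels. Wild type lies between 0.17 and 1.06, above both mutants at each temperature, and the insertion line between -1.32 and -0.37.

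Within groups the pair also moved together from library to library. The deviations of CCA1 and LHY from their group means had r = 0.744 over 27 libraries that each share their library total, and 20 of the 27 libraries deviated the same way for both. This is given as a description.

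Around the pair, 40 clock genes in 6 lists were set beside these changes. The lists were chosen with earlier results of these data known, so their counts are a description. The feedback repressors of CCA1 and LHY are PRR9, PRR7, PRR5, TOC1 and CHE (a TCP factor that acts on the CCA1 promoter, named TCP11 in the table). In the S364P line at 16 °C CCA1 was near wild type and LHY at 73.5% of the wild-type mean. There PRR7 was at 16.8 ± 0.904 TPM against 0.967 ± 0.188 in wild type, and PRR9 at 7.71 ± 0.812 against 0.667 ± 0.0907. These 2 of 5 rose (3.18 ± 0.121 and 2.38 ± 0.089), against 0.710% of all tested genes called higher. TOC1 was at 17.6 ± 0.451 against 16.5 ± 0.850 TPM, PRR5 at 3.47 ± 0.710 against 2.75 ± 0.694 and CHE at 23.3 ± 0.464 against 20.1 ± 0.566, and none of these differences passed.

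At 22 °C in the S364P line all 5 repressors rose, where 17.3% of tested genes did, with PRR7 at 40.3 ± 0.95 against 1.41 ± 0.501 TPM and TOC1 at 34.7 ± 1.58 against 15.2 ± 1.56. At 29 °C 4 of the 5 rose against 24.5% of genes. PRR7 was at 40.9 ± 4.27 against 4.83 ± 0.670 TPM, TOC1 at 83.0 ± 6.28 against 29.3 ± 0.923, PRR5 at 10.12 ± 0.820 against 2.92 ± 0.566, and PRR9 at 1.63 ± 0.163 against 0.603 ± 0.0493. CHE fell there by 0.19 to 45.5 ± 3.51 against 51.9 ± 3.48 TPM, a call that ended in a fit of these groups alone and without wild-type replicate 3 or S364P replicate 1 or 2.

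In the insertion line all 5 repressors rose at 16 and 22 °C and 4 at 29 °C, against 15.5%, 24.6% and 24.8% of all tested genes. PRR9 was highest at 16 °C, at 18.5 ± 1.22 TPM, and lower at 22 and 29 °C, at 8.83 ± 0.359 and 4.85 ± 0.398. PRR7 was at 51.0 ± 7.77, 39.6 ± 2.03 and 40.4 ± 2.49 TPM, and TOC1 at 36.3 ± 1.49, 55.2 ± 2.45 and 75.3 ± 6.40. PRR5 was between 9.35 and 10.8 TPM in group means at the 3 temperatures. CHE at 29 °C was at 46.4 ± 2.33 against 51.9 ± 3.48 TPM, a difference that did not pass as deposited but did with median-of-ratios scaling, with quantile normalization, and without wild-type replicate 2 or insertion-line replicate 2. The list's median difference ran from 0.26 in the S364P line at 16 °C to 2.18 in the insertion line at 22 °C, with medians of -0.01 and 0.02 over all tested genes.

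Evening-phased targets, which the pair is known to repress in wild type, were 12 genes that include TOC1 and PRR5. The evening complex with ELF3 represses clock genes too. Whether rises on this list went with the levels of the pair or with the change in ELF3 was not tested. In the S364P line at 16 °C 3 of 12 rose: GI, at 2.89 ± 0.156 TPM, LUX, at 9.63 ± 0.357 against 5.14 ± 0.207, and the catalase gene CAT3, at 218 ± 3.62 against 166.4 ± 6.43. At 22 and 29 °C all 12 rose in this line. The insertion line had 12, 12 and 11 of 12 called higher at 16, 22 and 29 °C, the exception being ELF3 itself. Genes called higher over the whole table were 0.710%, 17.3% and 24.5% in the S364P line and 15.5%, 24.6% and 24.8% in the insertion line. List medians were 0.24, 1.33 and 1.84 in the S364P line and 1.75, 2.33 and 2.02 in the insertion line.

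Among these targets COR27, a regulator of clock and cold genes, was at 76.9 ± 15.2 TPM in the S364P line and 75.0 ± 14.2 in the insertion line at 29 °C, against 11.3 ± 1.48 in wild type. At 16 °C it was at 1.81 ± 0.0462 TPM in the S364P line and 20.2 ± 1.09 in the insertion line, against 1.37 ± 0.453 in wild type. GRP7, an RNA-binding protein of a slave oscillator, was at 4544 ± 234 and 4732 ± 264 TPM in the mutants at 29 °C against 1083 ± 41.9. FKF1, a blue light receptor that acts in flowering, was at 5.11 ± 0.866 and 4.74 ± 0.278 TPM against 0.217 ± 0.121. The LUX homologue BOA was at 36.8 ± 4.14 and 34.9 ± 2.53 TPM against 12.2 ± 0.563, and ELF4 at 38.2 ± 5.40 and 49.7 ± 1.49 against 11.8 ± 1.3. AT4G33980, also on this list, was at 24 ± 5.84 and 20.5 ± 3.91 TPM against 3.02 ± 0.565.

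The REVEILLE genes encode MYB-like homologues of the pair. RVE1, a dawn factor that promotes auxin synthesis, was among the 8 genes with profiles most like each member, listed below. RVE8, a morning activator of evening genes, was on neither list, and its mean in the S364P line did not fall from 16 to 22 °C. RVE8 in the S364P line was at 43.3 ± 3.34, 46.1 ± 5.27 and 8.77 ± 0.242 TPM at 16, 22 and 29 °C, against 47.3 ± 4.56, 79.6 ± 5.20 and 63.3 ± 4.61 in wild type. It fell by 0.78 at 22 °C and by 2.72 at 29 °C in this line, and by 1.71, 2.63 and 2.84 in the insertion line at the 3 temperatures. RVE1 fell by 0.69 and 2.75 at 22 and 29 °C in the S364P line and by 1.60, 2.54 and 2.75 in the insertion line. RVE7 rose in each comparison, by 0.54 to 1.68. ASG4, another REVEILLE gene, fell in each, from -0.92 in the S364P line at 16 °C to -3.61 in the insertion line at 16 °C, where it was at 0.267 ± 0.146 against 14.4 ± 0.538 TPM. Of the 8 genes, 1, 3 and 5 were lower in the S364P line at 16, 22 and 29 °C and 5, 4 and 5 in the insertion line, where 0.738%, 19.9%, 13.7%, 10.7%, 18.4% and 13.5% of tested genes were. In each comparison 1, RVE7, was higher.

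Of the 4 LNK coactivators, partners of RVE8, LNK1 rose in each comparison, most at 16 °C, where it was at 20.3 ± 0.803 TPM in the S364P line and 24.2 ± 1.83 in the insertion line against 2.79 ± 0.615 in wild type. LNK2 fell at each temperature in the insertion line and at 29 °C in the S364P line, where it was at 41.0 ± 6.93 against 154.8 ± 34.6 TPM. In all 3, 3 and 2 LNK genes were higher and 0, 0 and 2 lower in the S364P line, and 3, 3 and 2 higher and 1, 1 and 1 lower in the insertion line. Over all tested genes, 0.710%, 17.3% and 24.5% were higher and 0.738%, 19.9% and 13.7% lower in the S364P line, and 15.5%, 24.6% and 24.8% higher and 10.7%, 18.4% and 13.5% lower in the insertion line. Of 7 genes known to activate CCA1 or LHY, HY5, a bZIP factor of light signalling, fell at 22 and 29 °C in the S364P line (-0.89 and -1.39) and at 16, 22 and 29 °C in the insertion line (-1.20, -1.10 and -1.59). HY5 was at 8.74 ± 0.928 and 7.58 ± 1.73 TPM in the mutants at 29 °C against 24.4 ± 1.11 in wild type.

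The other 6 activators (LWD1, LWD2, TCP20, TCP22, FHY3 and FAR1) had small differences: 0, 4 and 4 rose in the S364P line, against 0.710%, 17.3% and 24.5% of all tested genes, and 4, 5 and 3 in the insertion line, against 15.5%, 24.6% and 24.8%, none by more than 0.71 (LWD1 in the insertion line at 22 °C). TCP20 rose most at 29 °C in the S364P line (0.34) and TCP22 in the insertion line (0.43). Protein partners and modifiers (the casein kinase 2 subunits CKB3, CKB4, CKA1 and CKA2, and the corepressors DET1 and TPL) had 0, 4 and 2 of 6 higher in the S364P line and 4, 4 and 1 in the insertion line, with the largest rise in CKB3, 0.78 in the insertion line at 22 °C, and CKB4 highest at 29 °C (0.37 and 0.26). Lower calls were 0, 0 and 1 and 1, 2 and 1, with CKA1 at -0.16 and -0.26 at 29 °C, DET1 at -0.22 and TPL at -0.24 in the insertion line at 16 and 22 °C. Beside the same shares of all tested genes called higher, the 2 of 6 and 1 of 6 at 29 °C are near the background. Lower calls over all tested genes were 0.738%, 19.9% and 13.7% in the S364P line and 10.7%, 18.4% and 13.5% in the insertion line. The CKA1 call in the S364P line ended without its replicate 3. These small differences depend on the scaling: with median-of-ratios scaling 2 activators rose in the S364P line and no partner in the insertion line at 29 °C. In the S364P line at 16 °C, where no gene of these lists was called, the list medians were 0.05 and 0.03.

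**Figure D4:**
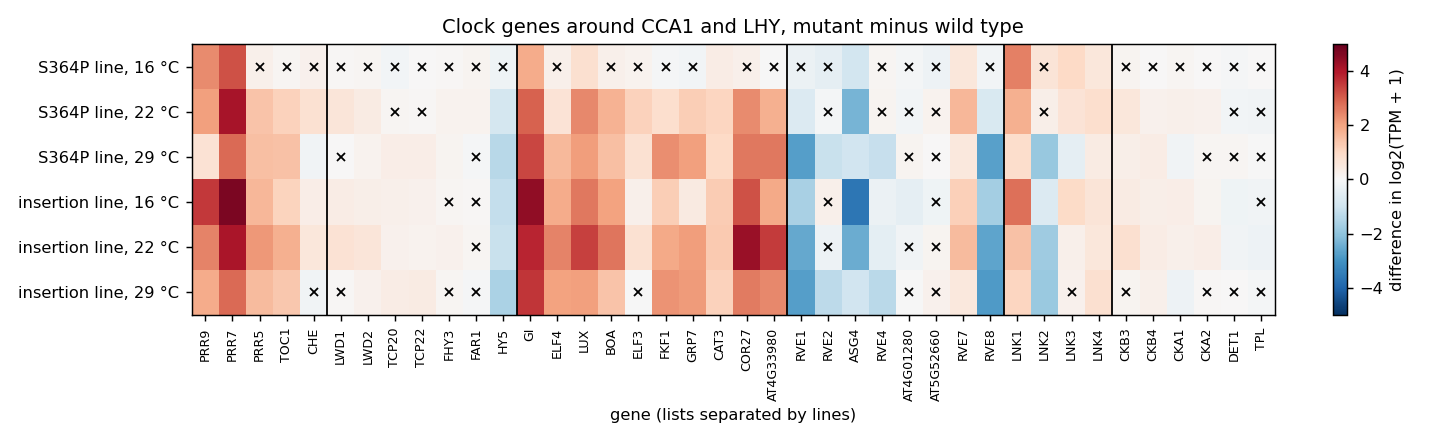
Difference in log2(TPM + 1) from wild type for 40 clock genes (columns, grouped by list) in 6 comparisons (rows); crosses mark differences that did not pass. TOC1 and PRR5 are drawn once, among the repressors, and the row of the S364P line at 16 °C has PRR7 (3.18), LNK1 (2.5) and PRR9 (2.38) as its highest values.

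Genes whose profile was most like each member were ranked by Pearson's r over the 9 group means of log2(TPM + 1), among the 15217 other genes whose mean reached 5 TPM. LHY and CCA1 had r = 0.975 to each other, at which LHY stood in place 37 for CCA1 and CCA1 in place 26 for LHY. The 8 genes most like CCA1 were AT1G61300 (r = 0.993), the carbonic anhydrase gene BCA4 (0.988), the light signalling repressor SPA1 (0.986), RVE1 (0.986), AT1G64500 (0.986), AT3G01060 (0.986), the B-box gene BBX19 (0.985) and the resistance gene WRR4 (0.984). AT3G01060 had a range most like that of CCA1, from 82.7 TPM in wild type at 16 °C to 3.11 in the S364P line at 29 °C. For LHY they were ATH13 (0.996), NF-YA4 (0.994), the phototropism gene RPT2 (0.993), the oxidoreductase gene AOR (0.991), RVE1 (0.988), the nucleobase transporter gene NCS1 (0.987), COL1 (0.985) and AT5G59770 (0.985). RVE1 stood on both lists. Pearson's r does not weigh the size of a change: AT5G59770 ran only from 28.7 TPM in wild type at 22 °C to 19.1 in the insertion line at 29 °C.

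The most opposite profiles to CCA1 were those of the bZIP factor gene TGA3 (-0.991), GA2OX6 (-0.985), which encodes an enzyme that inactivates gibberellins, AT1G21050 (-0.985), PBL1 (-0.984) and GRP3S (-0.984). To LHY they were AT1G53035 (-0.995), the polyol transporter gene PMT6 (-0.987), AT2G24300 (-0.987), FP6 (-0.987) and PBL1 (-0.982). These correlations rest on 9 means of shared libraries, and over the 27 libraries 2 of the 8 genes most like CCA1 and 6 of those most like LHY were again among the first 8.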

How the data were processed

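RNA sequencing of seedlings gave 1 table of TPM (transcript abundance scaled to gene length and library total) for 33039 genes in 27 libraries. TPM were made by the authors, per the file headers, with 9 columns of group means that differ from the means of the libraries by at most 3.3e-05 TPM. For the deposited TPM, aligner, counter and genome build were not given in the sources used here. TPM sum to a fixed total, so a shift in abundant genes moves all others, and depth is unknown. Columns were matched to samples by name, and 2 insertion-line columns at 16 °C could be tied to their group only. The 1 line without values was left out.

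The 21396 genes with 3 or more libraries at 1 TPM or above were fitted in limma 3.58.1 (R 4.3.3) as log2(TPM + 1), with 9 group means, a mean-variance trend and 21 comparisons. P-values were adjusted by Benjamini-Hochberg over all tested genes and called at 0.05. The ratio of LHY to CCA1 was tested by exact permutation (SciPy 1.17.1). The script was tested on simulated data. Promoter windows came from RefSeq TAIR10.1, whose transcript lengths matched 99.5% of the table's gene lengths with a RefSeq ID.

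Besides CCA1 and LHY, the text names the repressors and evening-phased targets, the member of each other list with the largest called difference per mutant and temperature, and the 8 most like and 5 most opposite genes. The members and lists were chosen with earlier results of these data known. Alternatives were other pseudocounts (0.1 and 5), filters, scalings, a fit without trend, the groups compared alone, no organelle-encoded genes, a replicate block and each replicate left out.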

Additional observations from a re-analysis of the deposited data

Results flagged for a closer look

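In 9 of the 12 tests of whether a temperature step differed between genotypes, CCA1 or LHY passed in limma's fit. Against wild type, the 16 to 22 °C step of the S364P line differed by -1.31 for CCA1 and -1.95 for LHY, and its 22 to 29 °C step by -3.45 and -3.40. The 16 to 22 °C step of the insertion line differed from wild type by -1.14 for CCA1 and -1.25 for LHY. Between the S364P and insertion lines, LHY differed by -0.70 from 16 to 22 °C, and CCA1 and LHY by -3.12 and -3.03 from 22 to 29 °C. These values are differences of steps in log2(TPM + 1). Shares of all tested genes called are given for the 16 to 22 and then the 22 to 29 °C step. They were 14.1% and 17.4% for the S364P line against wild type, and 9.82% and 17.8% for the insertion line. Between the mutants they were 4.81% and 5.62%. Each temperature may have its own time of day, so these tests cannot tell temperature and time of day apart, and those against wild type share its libraries.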

How the results depend on the processing

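Of 744 alternative values for the 42 comparisons of CCA1 and LHY, 722 kept direction and side of the threshold. CCA1 between the mutants at 29 °C was lost at a pseudocount of 5 (-0.28), with median-of-ratios scaling (-0.42), quantile normalization (-0.42) and the groups alone (-0.46), and ran from -0.57 to -0.40 with 1 library left out. CCA1 in wild type from 16 to 22 °C was lost with quantile normalization (-0.22) and ran from -0.30 to -0.24 with 1 library left out. LHY in the S364P line at 16 °C passed at a pseudocount of 5 (-0.44), a filter at 5 TPM (-0.44) and the groups alone (-0.44). For the 22 to 29 °C step of the insertion line against wild type, CCA1 passed with quantile normalization (-0.46) and ran from -0.40 to -0.21 with 1 library left out, passing without insertion-line replicate 3 at 22 °C. LHY there passed at a pseudocount of 0.1 (-0.53) and with quantile normalization (-0.54), and turned to 0.0059 at a pseudocount of 5. CCA1 between the mutants' 16 to 22 °C steps turned to 0.0018 with quantile normalization. The cause was not tested.

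Genes called between the S364P line and wild type at 16 °C numbered 310, 664 with the groups alone, and 191, 204 and 196 without wild-type replicate 2 or S364P replicate 1 or 3. Between the mutants they numbered 3345 at 22 °C (1350 alone) and 214 at 29 °C (56 alone; 1406, 92 and 94 without S364P replicate 1, 2 or 3, and 84 without insertion-line replicate 3). For the mutants' steps they were 1030 (648 alone) and 1202 (447 alone; 758, 793 and 793 without S364P replicate 2 at 29 °C, insertion-line replicate 1 at 22 °C or replicate 3 at 29 °C). Calls higher than wild type at 29 °C went from 64.2% to 51.4% of calls in the S364P line and from 64.7% to 47.0% in the insertion line with median-of-ratios scaling. Of 1152 list counts, 40 moved by over 1.5 times.

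Replicate numbers did not pair the samples: 4 of 27 same-number pairs correlated above 0.1 (range -0.23 to 0.26), and 9 had their own number highest. The replicate block changed no call for CCA1, LHY or their ratio over the 3 temperatures, with adjusted p = 0.0522 for LHY in the S364P line at 16 °C from limma.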
